A study of Mus musculus with 9 samples.

Results

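Sirpa, Sirpb1a and Cd47 encode a pair of related receptors of the signal regulatory protein (SIRP) family and the ligand of the first of them. They were taken by symbol from a table of 14862 mouse genes, and each of the 3 had 1 row. RNA was sequenced from spleens of C57Bl/6 mice aged 8 to 12 weeks, in 9 libraries of dendritic cells sorted into cDC1 (type 1 conventional), cDC2 (type 2 conventional) and mcDC, 3 libraries per subset. The labels give no genotype change and no treatment, do not expand the name mcDC (in the field it stands for merocytic dendritic cells) and do not say how many animals a library pools. P-values therefore rest on the variation among libraries, part of which may be technical. Replicate numbers are not in the labels, and 1, 2 and 3 follow the order of the sample titles within each subset. Values are RPKM, reads per kilobase of gene length and per M reads of the library, so levels of different genes are compared per length, as far as the gene lengths used for them hold.

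SIRPA is an inhibitory receptor of myeloid cells. When it binds CD47 on another cell, the tyrosine motifs of its tail recruit the phosphatases SHP-1 and SHP-2 and engulfment is held back. CD47 is carried by nearly all cells, and in mouse spleen SIRPA protein is a surface marker of cDC2. SIRPB1 receptors have a similar outer part but a short tail, do not bind CD47 appreciably, and signal through the adaptor DAP12 (gene Tyrobp) and the kinase SYK. Which surface markers defined the gates, and whether SIRPA protein was one of them, is not given in the labels.

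The promoter windows of Sirpb1a and of 2 relatives are shown because these genes had the same order of subsets, and that of Cd47 because its level was nearly even. Each window runs from 250 bases before to 50 bases after a start site listed by RefSeq in build GRCm38.p6, in the direction of the gene. Capitals mark matches, on either strand, to GGAAGT, the core of many sites of ETS family factors (printed ACTTCC where it lies on the other strand), and to a pair of GAAA separated by any 2 bases, a form of the interferon-stimulated response element. The Sirpb1a window is chr3:15426378-15426677 on the minus strand, the Sirpb1b window chr3:15575016-15575315 and the Sirpb1c window chr3:15848438-15848737, both also on the minus strand, and the Cd47 window chr16:49855404-49855703 on the plus strand.
Sirpb1a: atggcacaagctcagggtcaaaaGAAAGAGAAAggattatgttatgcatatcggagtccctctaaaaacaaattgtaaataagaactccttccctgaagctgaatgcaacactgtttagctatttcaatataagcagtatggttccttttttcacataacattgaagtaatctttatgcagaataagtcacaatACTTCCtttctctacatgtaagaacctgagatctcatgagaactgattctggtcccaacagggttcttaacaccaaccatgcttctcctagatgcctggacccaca
Sirpb1b: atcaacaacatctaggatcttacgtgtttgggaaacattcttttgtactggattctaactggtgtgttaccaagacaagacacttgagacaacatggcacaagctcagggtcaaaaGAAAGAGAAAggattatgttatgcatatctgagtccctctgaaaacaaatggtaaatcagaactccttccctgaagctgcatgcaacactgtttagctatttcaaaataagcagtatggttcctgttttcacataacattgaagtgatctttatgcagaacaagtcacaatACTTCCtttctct
Sirpb1c: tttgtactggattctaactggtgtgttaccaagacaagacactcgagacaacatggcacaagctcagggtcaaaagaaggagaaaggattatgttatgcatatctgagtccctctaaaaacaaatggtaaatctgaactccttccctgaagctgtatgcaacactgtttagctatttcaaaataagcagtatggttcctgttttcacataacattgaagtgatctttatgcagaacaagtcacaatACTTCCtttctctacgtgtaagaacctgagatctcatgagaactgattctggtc
Cd47: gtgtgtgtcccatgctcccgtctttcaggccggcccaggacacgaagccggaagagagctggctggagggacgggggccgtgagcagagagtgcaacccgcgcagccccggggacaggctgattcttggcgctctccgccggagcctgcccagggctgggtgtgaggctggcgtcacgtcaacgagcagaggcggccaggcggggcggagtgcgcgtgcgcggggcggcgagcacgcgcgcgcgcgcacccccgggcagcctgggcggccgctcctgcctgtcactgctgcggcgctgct
The Sirpb1 windows are shifted copies of each other. Without gaps, Sirpb1a and Sirpb1b matched at 198 of 207 aligned bases (95.7%) and Sirpb1b and Sirpb1c at 254 of 259 (98.1%). GGAAGT was found in all 3 Sirpb1 windows and in 23.8% of 32851 mouse promoter windows, and in neither of the 2 Cd47 windows listed. The spaced GAAA pair was found for Sirpb1a and Sirpb1b and in 3.44% of all windows, and was not in these letters of the Sirpb1c or Cd47 windows. GAGGAA and TATAAA, in 28.3% and 13.6% of all windows, were searched as well and were in none of these windows. The Sirpb1a window held 1 CG pair, against 35 in the Cd47 window and a median of 7 over all windows. The motifs were chosen after the Sirpb1a sequence had been read, and a match is a description of letters.

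Depth recovered from the values was 5.14 to 8.22 M reads for the mcDC libraries, 9.68 to 11.01 M for cDC1 and 9.19 to 12.43 M for cDC2. The summed RPKM of 10 cDC1 marker genes was 2070.1 to 2471 in cDC1, 382 to 395 in cDC2 and 663 to 1053 in mcDC. The summed RPKM of 10 cDC2 marker genes, a list without Sirpa, was 121 to 380.2 in cDC1, 1169 to 1249 in cDC2 and 784 to 940.4 in mcDC. Every one of these 20 markers was measured, and the labels of cDC1 and cDC2 matched the 2 sums in all 6 libraries. Single markers could overlap, as did the cDC2 marker Irf4, at 23.3 RPKM in cDC1 replicate 1 and 20.5 in cDC2 replicate 3.

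Sirpa, the inhibitory receptor, was highest in cDC2, lower in mcDC and lowest in cDC1. In replicates 1, 2 and 3 it was at 277, 278 and 267 RPKM in cDC2, at 213, 145 and 151 RPKM in mcDC and at 43.0, 11.5 and 13.4 RPKM in cDC1. The 3 subsets did not overlap, and cDC1 replicate 1 stood 3.73 times above the lowest cDC1 library. The mean was 7.49-fold higher in mcDC than in cDC1, with a log2 fold change of log2(RPKM + 1) of 3.07 ± 0.40 (SE, limma adjusted p = 0.00092). In this comparison 15.4% of the 11971 genes tested passed the threshold of 0.05, and 19.5% had all mcDC libraries above all cDC1 libraries. By the size of its log2 fold change Sirpa ranked 53 among them. The mean in cDC2 was 12.1-fold that in cDC1 (log2 fold change of cDC1 against cDC2 -3.78 ± 0.40, limma adjusted p = 0.00015), where 19.6% of genes tested passed, 24.6% were lower and 21.5% higher in all cDC1 libraries without overlap. Since these are bulk samples, fewer cells that carry a transcript and less of it per cell cannot be told apart.

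Between mcDC and cDC2 the test did not separate Sirpa. Its mean was 1.61-fold higher in cDC2, and all 3 cDC2 libraries were above all 3 mcDC libraries. The log2 fold change was -0.71 ± 0.40 (limma adjusted p = 0.42, or 0.22 when libraries were blocked by title run), in a comparison where 3.66% of genes tested passed and 7.7% were lower in all mcDC libraries without overlap. The SE is shared by the 3 subsets, and Sirpa varied by an SD of 0.99 on the log2 scale in cDC1, 0.30 in mcDC and 0.033 in cDC2. Its adjusted p was 0.12 with mcDC and cDC2 fitted alone and 0.054 without cDC1 replicate 1.

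Sirpb1a, a DAP12-coupled activating relative, had the same order of subsets with a wider range. In replicates 1, 2 and 3 it was at 142, 138 and 136 RPKM in cDC2, at 100.5, 59.6 and 56.4 RPKM in mcDC and at 9.73, 2.36 and 1.17 RPKM in cDC1. Again no subset overlapped another, and replicate 1 was the highest library of each subset. The cDC1 values rest on 132, 32 and 14 reads, while cDC2 libraries had 1614 to 2090 reads. In mcDC the mean was 16.3-fold that of cDC1, a log2 fold change of 4.05 ± 0.49 (limma adjusted p = 0.00058), and in cDC2 it was 31.4-fold that of cDC1 (cDC1 against cDC2 -5.03 ± 0.49, adjusted p = 9.3e-05). These changes ranked 8 and 12 by size among the genes tested. Against cDC2, mcDC had a log2 fold change of -0.98 ± 0.49 (limma adjusted p = 0.35, or 0.15 when libraries were blocked by title run), with the mean 1.92-fold higher in cDC2.

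Cd47, the ligand of SIRPA, was abundant and nearly even. In replicates 1, 2 and 3 it was at 118, 116 and 116 RPKM in mcDC, at 102, 101 and 110.3 RPKM in cDC2 and at 93.0, 80.8 and 87.3 RPKM in cDC1. The order was the reverse of that of Sirpa for mcDC and cDC2, again with no overlap between subsets, and 13.9% of genes tested had all mcDC libraries above all cDC2 libraries. In mcDC the mean was 1.34-fold that of cDC1, a log2 fold change of 0.42 ± 0.099 (limma adjusted p = 0.019). That call ended with median-of-ratios scaling (log2 fold change 0.28, adjusted p = 0.095), quantile normalization (0.34, 0.057), voom on recovered reads (0.28, 0.11), mcDC and cDC1 fitted alone (0.42, 0.077), and without cDC1 replicate 2 (0.37, 0.10) or 3 (0.42, 0.068), over a range of adjusted p from 0.0097 to 0.11. Its differences between mcDC and cDC2 (0.16 ± 0.099, limma adjusted p = 0.47) and between cDC1 and cDC2 (-0.26 ± 0.099, adjusted p = 0.10) did not pass. The latter had limma adjusted p = 0.029 when libraries were blocked by title run without mcDC replicate 3.

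**Figure D1:**
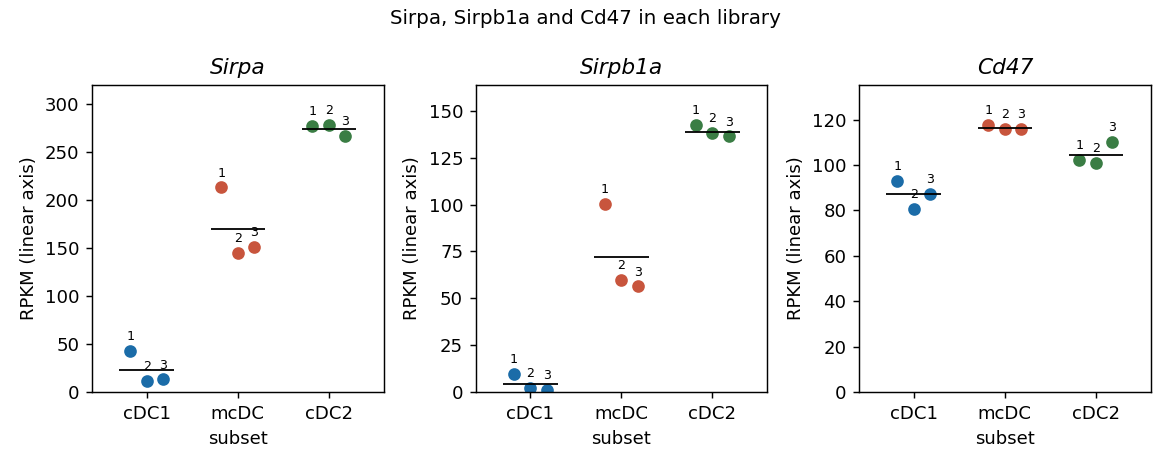
RPKM (linear axes from 0) of Sirpa, Sirpb1a and Cd47 in each library of cDC1, mcDC and cDC2, with the replicate number above each point and the mean of 3 libraries as a bar. Sirpa and Sirpb1a climb from cDC1 through mcDC to cDC2, while Cd47 lies between 80.8 and 118 RPKM in all 9 libraries.

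The levels can be placed among all genes tested. In cDC2 the mean of Sirpa was above that of 98.3% of them, in mcDC 97.3% and in cDC1 73.2%. For Sirpb1a these shares were 96.4%, 92.0% and 29.96%, and for Cd47 95.3%, 95.7% and 94.3%. The range of Cd47 over the 9 libraries was 0.54 on the log2(RPKM + 1) scale, and among 1417 genes with a mean above 50 RPKM 21.0% had a smaller range. For Sirpa the range was 4.47 and for Sirpb1a 6.04, and 99.0% and 99.6% of these abundant genes had a smaller one.

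Within a library the balance of the 3 transcripts differed between subsets. Sirpb1a stood at 0.51 ± 0.0095 of the RPKM of Sirpa in cDC2 (SD, 3 libraries), 0.42 ± 0.049 in mcDC and 0.17 ± 0.075 in cDC1. The libraries ranged from 0.496 to 0.514 in cDC2, 0.374 to 0.472 in mcDC and 0.0874 to 0.226 in cDC1, with no overlap. Cd47 exceeded Sirpa in every cDC1 library, by 2.16, 6.99 and 6.51 times in replicates 1, 2 and 3. It was below Sirpa in the others, with a ratio of 0.552 to 0.799 in mcDC and 0.363 to 0.414 in cDC2. These ratios rest on the lengths behind the RPKM, 1914 bases for Cd47 and 4398 for Sirpa, neither of which equals a GENCODE coding transcript (1032 to 5250 and 677 to 3982 bases). In cDC1 replicate 1 the reads were 1961 for Cd47 and 2084 for Sirpa, so there the longest of these lengths for Cd47 would place it below Sirpa. The shortest for Cd47, with the length of Sirpa kept, would place it above Sirpa in the mcDC libraries. The length behind Sirpb1a, 1232 bases, does not equal a coding transcript either (588 to 1499 bases). No test was run on these ratios.

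Between subsets Sirpa had the order of the summed cDC2 markers. Not all of the 10 markers had this order. Cd7, Dtx1 and Esam were higher in mcDC than in cDC2 in each replicate, while others, such as Itgam and Cd209a, were lower. Within cDC2 Sirpa did not follow the sum, since replicate 3 had the highest sum (1169, 1187 and 1249 RPKM in replicates 1, 2 and 3) and the lowest Sirpa. The mean log2(RPKM + 1) of the same 10 markers was lowest in replicate 3, as Sirpa was, at 6.41, 6.39 and 6.34. In cDC1 replicates 1, 2 and 3 the summed cDC2 markers were 380.2, 121 and 142 RPKM, so that the library with the most Sirpa and Sirpb1a was also the one with the most of them. In mcDC they were 940.4, 784 and 811 RPKM, and replicate 1 was again highest for both receptors. As a percent of that sum Sirpa was 9.46 to 11.3 in cDC1, 18.5 to 22.7 in mcDC and 21.3 to 23.7 in cDC2. Sirpb1a was 0.827 to 2.56, 6.96 to 10.7 and 10.9 to 12.2 percent of it. Whether cDC2 among the cells sorted as cDC1 or mcDC had a part in the levels was not tested. Without cDC1 replicate 1 the log2 fold changes against mcDC were 3.64 for Sirpa and 4.71 for Sirpb1a, and both stayed past the threshold in the 19 alternatives tried.

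Other myeloid cells of the spleen also carry Sirpa, and their markers were measured beside it. The summed RPKM of 9 measured neutrophil markers was 129.99, 908 and 1570.5 in cDC2 replicates 1, 2 and 3, while Sirpa was at 277, 278 and 267. In cDC1 the neutrophil sum was 12.97 to 46.6 and in mcDC 6.43 to 43.9, where Camp, a granule peptide, was at 0 in every library. The summed 10 red pulp macrophage markers were 422, 522 and 823 RPKM in mcDC replicates 1, 2 and 3, 117 to 160.4 in cDC1 and 188 to 222 in cDC2. All 10 were above 1 RPKM in every library of mcDC and of cDC1, and 9 in every library of cDC2. Sirpa was highest in the mcDC library with the lowest macrophage sum. Summed over 10 monocyte markers the range was 332 to 527 RPKM in cDC1, 753 to 925 in mcDC and 1625 to 2462 in cDC2, the order of Sirpa between subsets. Single markers differed, with Treml4 highest in cDC1 and Lyz2 highest in cDC2. Within cDC2 the sum was 1625, 2049 and 2462 RPKM in replicates 1, 2 and 3, while Sirpa was at 277, 278 and 267. Within mcDC the sum was highest in replicate 1 (925, 753 and 834 RPKM in replicates 1, 2 and 3), where Nr4a1 alone was at 419 RPKM, against 144.5 and 149.7 in the others. The mean log2(RPKM + 1) of the same 10 markers was lowest there, at 5.27, 5.42 and 5.68. The part of monocytes in the levels of Sirpa was not tested.

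**Figure D2:**
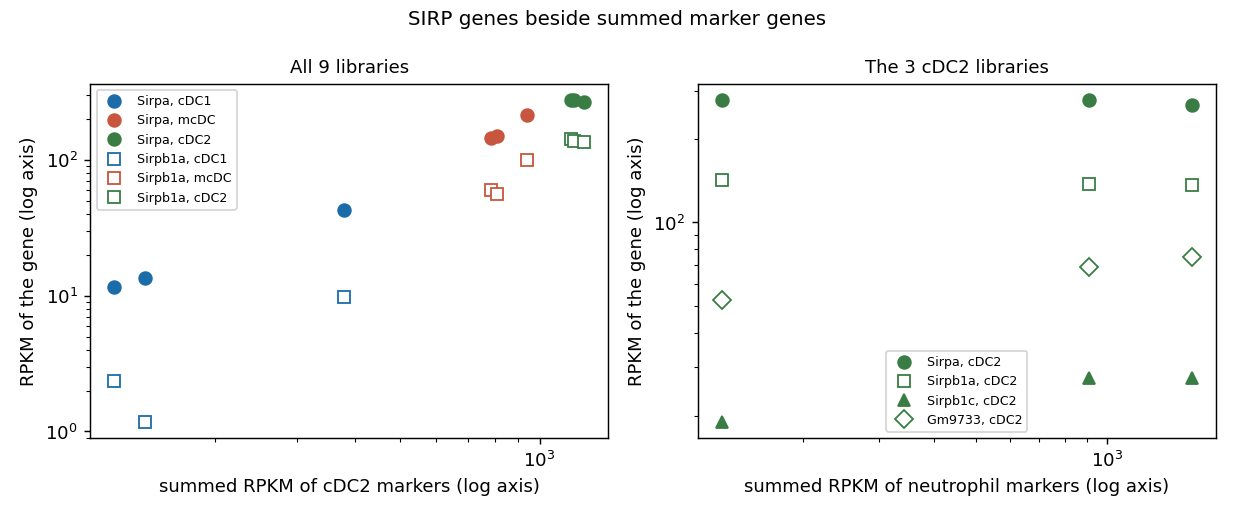
RPKM of SIRP genes (log axes) against the summed RPKM of 10 cDC2 markers in all 9 libraries (left) and of 9 neutrophil markers in the 3 cDC2 libraries (right), 1 point per gene and library, colored by subset. Subsets with a higher sum of cDC2 markers have more Sirpa and Sirpb1a, which in cDC2 stay between 267 and 278 and between 136 and 142 RPKM while the neutrophil sum goes from 129.99 to 1570.5. Sirpb1c and Gm9733, also shown on the right, rise with it from 19.0 to 27.4 and from 52.6 to 74.8 RPKM.

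The other activating SIRP genes were low in cDC1 as well, and they passed the test between mcDC and cDC2. Of 7 listed SIRP genes, Sirpa and Sirpb1a included, 4 were in the table and tested. All 4 were called higher in mcDC than in cDC1 (median log2 fold change 3.06, against 0.094 over all genes tested) and lower in cDC1 than in cDC2 (median -4.08, against -0.022), and 2, Sirpb1b and Sirpb1c, were called lower in mcDC than in cDC2 (median -0.94, against 0.060). Of all genes tested, 9.53% were called higher and 5.88% lower in mcDC than in cDC1, 2.06% higher and 1.6% lower in mcDC than in cDC2, and 8.85% higher and 10.7% lower in cDC1 than in cDC2, and these shares are the background for the counts of every list. Sirpb1b was at 17.9, 16.1 and 16.1 RPKM in cDC2 replicates 1, 2 and 3, at 9.09, 8.77 and 7.79 RPKM in mcDC and at 0.364, 0.0606 and 0.0689 RPKM in cDC1. In cDC1 it had 8 reads over the 3 libraries (95% Poisson interval 3.45 to 15.8, counting error only), too few to place its level. Its log2 fold change between mcDC and cDC2 was -0.89 ± 0.16 (limma adjusted p = 0.018). The call ended with a pseudocount of 0.1 (0.25) and without cDC2 replicate 1, 2 or 3 (0.0840, 0.0941 and 0.0848).

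Sirpb1c, listed in the file under an older symbol and matched by its gene number, was also lower in mcDC than in cDC2. It was at 19.0, 27.3 and 27.4 RPKM in cDC2, at 8.84, 6.29 and 4.40 RPKM in mcDC and at 0.686, 0.0623 and 0.354 RPKM in cDC1, where it had 17 reads in all (9.90 to 27.2). The log2 fold change between mcDC and cDC2 was -1.79 ± 0.27 (limma adjusted p = 0.0075, and 0.092 with a pseudocount of 0.1). Relative to Sirpb1a it was at 0.078 to 0.106 in mcDC and 0.133 to 0.201 in cDC2. Sirpb1b relative to Sirpb1a overlapped between these subsets, at 0.0904 to 0.147 and 0.116 to 0.126.

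Gm9733 and Gm5150, which lie in the Sirpb1 gene cluster by RefSeq order, were chosen after their values were seen. Gm9733 was at 52.6, 68.8 and 74.8 RPKM in cDC2 replicates 1, 2 and 3, at 19.8, 14.5 and 11.3 RPKM in mcDC and at 3.38, 0.734 and 1.502 RPKM in cDC1. Its log2 fold change between mcDC and cDC2 was -2.05 ± 0.32 (limma adjusted p = 0.0091, and 0.052 without cDC2 replicate 2). Gm5150 was at 12.98, 19.0 and 23.2 RPKM in cDC2, at 4.25, 5.71 and 4.68 RPKM in mcDC and at 0, 1.09 and 1.58 RPKM in cDC1 (mcDC against cDC2 -1.69 ± 0.34, adjusted p = 0.028). That call ended with a pseudocount of 0.1 (0.34), with voom (0.073), without cDC2 replicates 2 or 3 (0.13 each) and without mcDC replicate 2 (0.064). Sirpb1c, Gm9733 and Gm5150 were lowest in cDC2 replicate 1, the cDC2 library with the lowest neutrophil sum, which Sirpa, Sirpb1a and Sirpb1b were not. The part of neutrophils in these cDC2 levels was not tested.

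**Figure D3:**
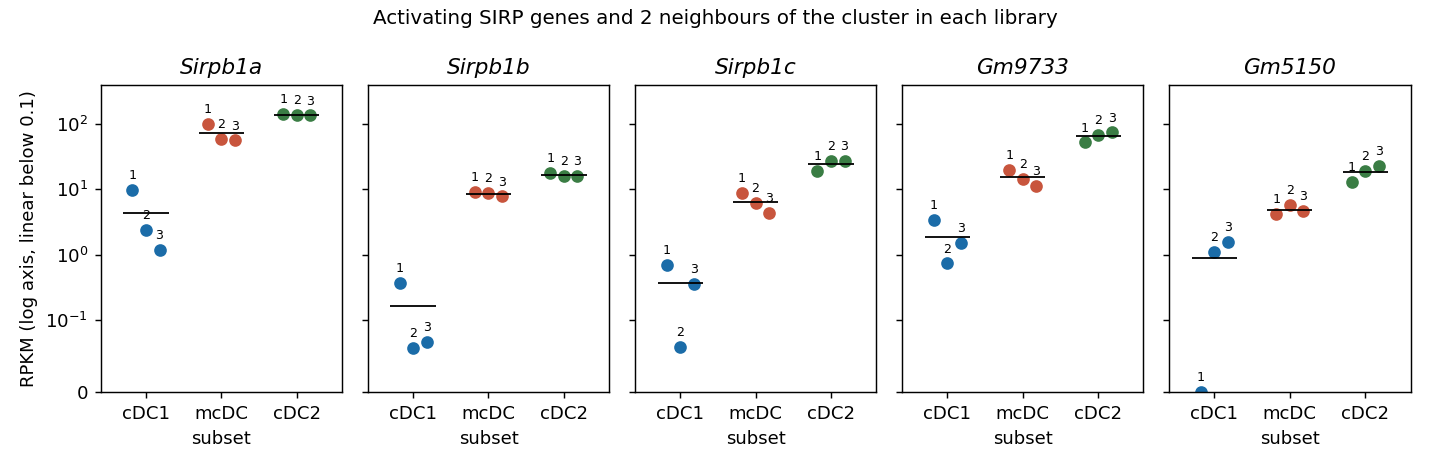
RPKM in each library (log axis, linear below 0.1) of Sirpb1a, Sirpb1b, Sirpb1c, Gm9733 and Gm5150, with the replicate number above each point and the mean of 3 libraries as a bar. All 5 are lowest in cDC1 and highest in cDC2, and in cDC1 Sirpb1b and Sirpb1c lie below 1 RPKM.

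Summed over Sirpa and these 5 genes the level was 30.4 ± 23.2 RPKM in cDC1, 277 ± 68.1 RPKM in mcDC and 538 ± 13.9 RPKM in cDC2 (SD, 3 libraries each). Sirpa made up 74.1% ± 1.20 of the sum in cDC1, 61.5% ± 2.26 in mcDC and 51.0% ± 2.06 in cDC2. Gm9733 made up 12.1% ± 1.87 in cDC2 and 5.48% ± 0.63 in mcDC. On the path from the cDC1 mean to the cDC2 mean on the log2 scale, mcDC stood at 81.3% for Sirpa, 80.4% for Sirpb1a and 77.4% for Sirpb1b, and at 57.7% for Sirpb1c, 55.6% for Gm9733 and 50.6% for Gm5150. Over the 1285 genes called lower in cDC1 than in cDC2 the median was 72.9%, with quartiles of 50.6% and 91.8%, and on this scale all 6 genes lay between the quartiles, Gm5150 at the edge. On the RPKM scale Sirpa stood at 58.5%, Sirpb1a at 50.4% and Sirpb1b at 50.7%, while Sirpb1c (25.4%), Gm9733 (21.0%) and Gm5150 (22.8%) lay below the lower quartile of 39.5%. All 6 belong to the 235 of these genes that were at least 4-fold lower in cDC1. Over those the RPKM scale had a median of 47.1% and a lower quartile of 22.2%. Gm9733 lay just below that quartile, and Sirpb1c and Gm5150 lay above it.

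Reads of the Sirpb1 genes could have been split between copies. The distinct 50-base stretches of GENCODE transcripts (build GRCm38) were compared among 7 genes: Sirpa, Sirpb1a, Sirpb1b, Sirpb1c, Gm9733, Gm5150 and Cd47. Of those of Sirpb1a, 43.8% also occurred in another of these genes, 35% in Sirpb1b, 39.8% in Sirpb1c and 0% in each of the rest. The share was 66.8% for Sirpb1b and 37.4% for Sirpb1c, and how reads of shared stretches were assigned is not known, so the values of these genes are uncertain by an amount that was not measured. For Sirpa, Cd47, Gm9733 and Gm5150 the share was 0%, and genes beyond these 7 were not compared. The sources used here give neither the read length nor the treatment of reads with several matches.

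**Figure D4:**
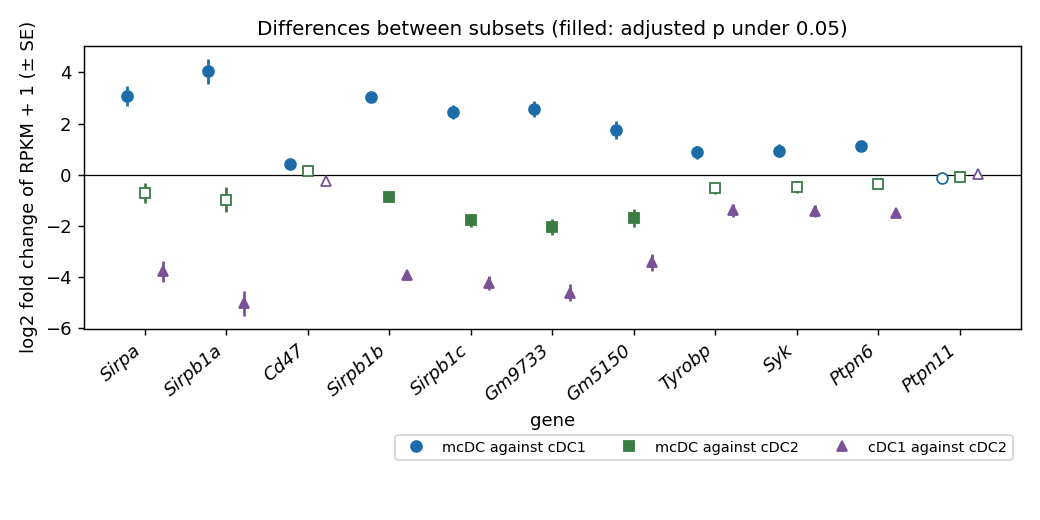
Log2 fold change of RPKM + 1 with its SE for 11 genes (x axis) in the 3 comparisons, filled where the limma adjusted p was under 0.05. Sirpa and Sirpb1a are filled in the comparisons with cDC1 and open between mcDC and cDC2, where Sirpb1b, Sirpb1c, Gm9733 and Gm5150 are filled.

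Downstream of SIRPA, the gene of the phosphatase SHP-1 was lowest in cDC1, as the receptor was, and that of SHP-2 was nearly even. Ptpn6, which encodes SHP-1, was at 125 ± 23.3 RPKM in cDC1, 271 ± 13.4 in mcDC and 352 ± 23.1 in cDC2 (mcDC against cDC1 1.13 ± 0.14, limma adjusted p = 0.00075, and cDC1 against cDC2 -1.50 ± 0.14, adjusted p = 8.3e-05). Ptpn11, which encodes SHP-2, was at 24.1 ± 1.93, 22.2 ± 0.76 and 23.5 ± 0.95 RPKM and passed in no comparison. Of 11 listed genes of SIRPA inhibitory signalling tested, 6 were higher in mcDC than in cDC1 and 8 lower in cDC1 than in cDC2, with 0 in the opposite directions (medians 0.51 and -0.82). Fgr, a SRC family kinase, was at 36.7 ± 11.9 RPKM in cDC1, 120.5 ± 8.07 in mcDC and 199 ± 21.6 in cDC2. Fyb, an adaptor that binds SKAP proteins, was at 54.1 ± 16.3, 174 ± 64.3 and 227 ± 28.02 RPKM, and Ptk2b, the kinase PYK2, at 29.4 ± 4.74, 45.7 ± 4.94 and 66.6 ± 3.11 RPKM. The call of Ptk2b between mcDC and cDC1 (limma adjusted p = 0.013) ended in 3 of 19 alternatives, up to 0.0667. Skap2, an adaptor of the SIRPA complex, was at 195 ± 7.10, 172 ± 12.3 and 167 ± 11.9 RPKM, with no call between mcDC and cDC1 (limma adjusted p = 0.31).

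On the side of SIRPB1, the adaptor and its kinase were lowest in cDC1. Tyrobp, the DAP12 adaptor, was at 391, 340.1 and 457 RPKM in cDC1 replicates 1, 2 and 3, at 540.0, 689 and 1012 RPKM in mcDC and at 846, 1029.7 and 1266 RPKM in cDC2. It was lower in cDC1 than in cDC2 (log2 fold change -1.39 ± 0.25, limma adjusted p = 0.0032) and higher in mcDC than in cDC1 (0.88 ± 0.25, adjusted p = 0.040), a call kept in 9 of 19 alternatives, with adjusted p from 0.0016 to 0.16. Within mcDC its order of libraries was that of several marker sums, among them those of macrophages, neutrophils and NK cells (the last at 58.8, 94.3 and 146 RPKM). Within cDC2 it was that of the neutrophil, monocyte and NK cell sums, among others (the last at 24.3, 33.2 and 43.3 RPKM). In each of these subsets the order was opposite to that of Sirpb1a, and the part of these cells was not tested. Syk was at 37.4 ± 6.89 RPKM in cDC1, 75.1 ± 27.3 in mcDC and 102 ± 12.6 in cDC2 (mcDC against cDC1 0.94 ± 0.25, limma adjusted p = 0.029, up to 0.11 in the alternatives, 7 of which ended the call). Of 10 genes of DAP12 signalling, 4 were higher and 1 lower in mcDC than in cDC1 (median 0.50), and 5 were lower in cDC1 than in cDC2 (median -0.42). The lower member was Vav3, a guanine nucleotide exchange factor, at 8.10 ± 0.62 RPKM in mcDC and 13.4 ± 0.52 in cDC1. Between mcDC and cDC2, Zap70, a kinase best known in T cells, was higher in mcDC (4.65 ± 2.13 against 0.950 ± 0.132 RPKM, limma adjusted p = 0.017, a call ended by 5 of 18 alternatives, with adjusted p up to 0.0875). The summed T cell markers were at 32.1 to 49.99 RPKM in mcDC and 17.5 to 27.1 in cDC2, and the summed NK cell markers at 58.8 to 146 and 24.3 to 43.3, and their part in Zap70 was not tested. Card9, an adaptor downstream of SYK, was lower in mcDC (41.5 ± 3.71 against 66.1 ± 7.03 RPKM, limma adjusted p = 0.015, and up to 0.0984 in the 4 alternatives that ended the call).

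Other receptors of both kinds were counted the same way. Of 11 other DAP12-coupled receptors tested, 7 were higher and 1 lower in mcDC than in cDC1 (median 1.14), and 9 were lower and 2 higher in cDC1 than in cDC2 (median -1.88). Cd300ld was at 1.26 ± 0.26 RPKM in cDC1, 16.6 ± 3.42 in mcDC and 43.99 ± 6.35 in cDC2, and Pilrb2, an activating paired receptor, at 0.984 ± 0.906, 10.6 ± 0.56 and 18.8 ± 3.59 RPKM. Against cDC2, 7 of the 11 were lower in mcDC and 0 higher (median -0.93). Trem3, at 2.35 ± 1.98 RPKM in mcDC and 11.3 ± 3.24 in cDC2, and Cd300lb, at 2.37 ± 0.85 and 14.9 ± 3.75, were among them, and the call of Trem3 ended in 5 of 19 alternatives. The member lower in mcDC than in cDC1 was Treml4, chosen after its values were seen, at 32.9 ± 11.6 against 102 ± 7.82 RPKM. Of 18 other receptors listed as inhibitory, 12 were higher and 1 lower in mcDC than in cDC1 (median 1.25), 13 were lower and 1 higher in cDC1 than in cDC2 (median -2.29), and 2, Ceacam1 and Lilrb4a, were lower in mcDC than in cDC2 (median -0.34). Lilrb4a passed narrowly there (limma adjusted p = 0.047), and its call ended in 11 of 19 alternatives, with adjusted p up to 0.19. Siglece, a sialic acid binding receptor, was at 2.29 ± 0.47 RPKM in cDC1, 21.7 ± 0.97 in mcDC and 32.2 ± 0.74 in cDC2. Cd72, best known from B cells, was at 4.42 ± 1.11, 41.7 ± 3.05 and 35.4 ± 1.66 RPKM. Ceacam1, an adhesion receptor, was lower in mcDC than in cDC2, at 3.50 ± 2.25 against 18.8 ± 2.14 RPKM (limma adjusted p = 0.0057). The comparisons share libraries, those of cDC1, cDC2 or mcDC, so their counts are not independent of each other.

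Of 5 tested genes on a list of CD47 partners and modifiers, 1 was called. Of all genes tested, 15.4% were called between mcDC and cDC1 and 19.6% between cDC1 and cDC2. The listed gene called was Qpct, a glutaminyl cyclase, at 4.58 ± 1.26 RPKM in cDC1, 1.60 ± 0.063 in mcDC and 1.64 ± 0.61 in cDC2 (mcDC against cDC1 -1.08 ± 0.23, limma adjusted p = 0.013, and 0.0625 and 0.0612 without cDC1 replicates 2 and 3). Its relative Qpctl, the Golgi enzyme that modifies the end of CD47 bound by SIRPA and chosen after its values were seen, was at 5.61 ± 0.10, 8.79 ± 2.24 and 4.63 ± 0.62 RPKM, without a call (mcDC against cDC1 limma adjusted p = 0.079 and against cDC2 0.052). The integrin chain Itgav, at 11.3 ± 2.54, 11.5 ± 1.79 and 13.2 ± 0.97 RPKM, and the G protein subunit Gnai2, at 338 ± 8.40, 403 ± 21.3 and 432 ± 37.9 RPKM, passed in no comparison, and Gnai2 had limma adjusted p = 0.021 between cDC1 and cDC2 when blocked by title run.

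Among 7 tested partners of phagocytosis checkpoints, 2 were higher in mcDC than in cDC1 and 0 lower (median -0.0048), and between mcDC and cDC2 1 was higher and 1 lower. Lrp1, an engulfment receptor for calreticulin, was at 4.27 ± 2.28 RPKM in cDC1, 12.8 ± 3.48 in mcDC and 40.04 ± 5.17 in cDC2, lower in mcDC than in cDC2 by a log2 fold change of -1.60 ± 0.29 (limma adjusted p = 0.017, and up to 0.0867 in the 3 alternatives that ended the call). Cd24a, a ligand of SIGLEC receptors, had another order, at 205 ± 19.4 RPKM in cDC1, 198 ± 81.2 in mcDC and 40.6 ± 17.3 in cDC2 (mcDC against cDC2 2.25 ± 0.38, limma adjusted p = 0.011, and 0.0502 and 0.0523 in the 2 alternatives that ended the call). Cd274, which encodes PD-L1, was at 25.7 ± 3.04, 55.6 ± 21.9 and 57.4 ± 8.27 RPKM (mcDC against cDC1 1.01 ± 0.26, adjusted p = 0.030, a call ended by 9 of 19 alternatives, with adjusted p up to 0.11). Calr, calreticulin, was at 594 ± 77.6, 477 ± 104 and 396 ± 34.1 RPKM, with no call between cDC1 and cDC2 (limma adjusted p = 0.057, or 0.0039 when blocked by title run). B2m, the light chain of MHC class I, was at 1904 ± 101, 1901 ± 155 and 2308 ± 199 RPKM and passed in no comparison.

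**Figure D5:**
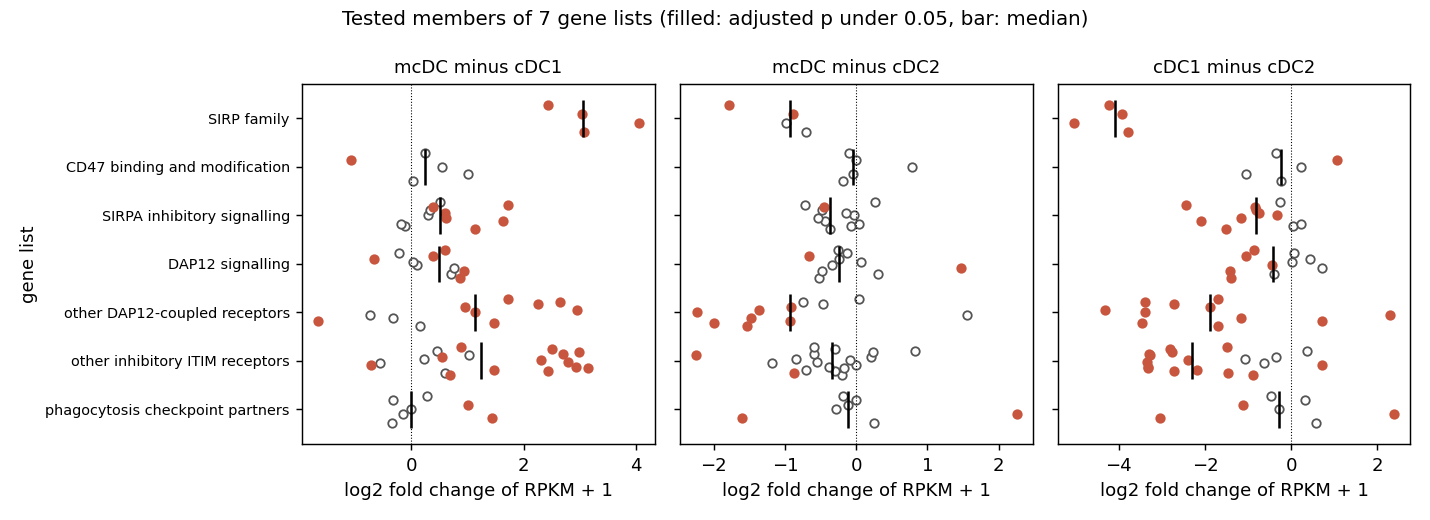
Log2 fold change of RPKM + 1 of each tested gene of 7 lists (rows) in the 3 comparisons, filled where the limma adjusted p was under 0.05, with a bar at the list's median. In the comparisons with cDC1 the SIRP family has the outermost medians, 3.06 and -4.08, and the CD47 list has medians of 0.25 and -0.23.

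By Pearson's r of log2(RPKM + 1) over the 9 libraries, among 8358 genes with a mean of at least 5 RPKM, the 5 genes most like Sirpa were Lta4h (r = 0.995), which makes leukotriene B4, the collagen receptor Ddr1, the lysosomal transporter Slc15a4, Sirpb1a and Gpr162. All 5 had r between 0.9949 and 0.9952. Those most like Sirpb1a were Rarg, a retinoic acid receptor (0.995), Sirpa, Gpr162, Tlr1 and Ddr1. Lta4h was at 46.4 ± 7.72 RPKM in cDC1, 88.4 ± 5.21 in mcDC and 102 ± 3.66 in cDC2, a far smaller range than that of Sirpa. Sirpb1b was further from Sirpa (0.973), with 85 genes closer. Those most like Cd47 were Mfsd14b (0.971), Fam53a, Mndal, Tmem173, which encodes STING, and Ech1 (0.953), and Mndal was at 22.3 ± 6.37 RPKM in cDC1, 95.3 ± 16.4 in mcDC and 71.9 ± 12.1 in cDC2. Sirpa and Cd47 had r = 0.837, with 824 genes closer to Sirpa. The points share the same 3 subsets and their depth, so r mostly follows the order of the subsets and is given as a description.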

How the data were processed

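The submitters deposited RPKM values for 9 libraries in 1 table and, for 8 libraries, in files of their own, whose values equalled the table's columns. Only the table holds mcDC replicate 3. The unit is not named in the files and was read from the steps between values, which gave whole reads for 100% of nonzero values within 0.001 of a read. The genome build was mm8, per the submitters' processing notes, while aligner, counter and annotation are not given in the sources used here. There were 0 columns of other samples.

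All 11971 genes above 1 RPKM in at least 2 libraries entered a single limma fit (version 3.58.1, R 4.3.3) of log2(RPKM + 1) over the 9 libraries, with a trended prior variance and 6 residual degrees of freedom. P-values were adjusted by the Benjamini-Hochberg method within each comparison, and called under 0.05. The added 1 shrinks the log2 fold changes of low genes. The script was tested on simulated data. Samples were grouped by the label of cell type.

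Titles run in consecutive numbers with 1 library of each subset per run of 3 (the title run). Deviations from the subset means were correlated between same-run libraries. At mean RPKM minimums of 1, 5 and 10 (11312, 8358 and 6174 genes), 9, 8 and 9 of the 9 same-run pairs were above 0.1. The same-run means were 0.291, 0.35 and 0.407, and those of other pairs -0.144, -0.173 and -0.199. Deviations within a subset cancel out, so the means of other pairs follow from the same-run ones and are no separate evidence of pairing. The minimums of 1 and 10 were added after the blocked fit had been seen. What the libraries of a run have in common is not stated, and the block is given beside results it changes.

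The members, the gene lists, the markers and the tests were chosen with earlier results of these data known. Genes named were the members, the SIRP genes found, up to 4 called members per list and comparison with the largest change and 2 uncalled ones with the highest RPKM, Tyrobp, Ptpn6, Ptpn11 and Syk, and the 5 nearest genes of each member, predicted genes left out. Promoter windows are RefSeq's for GRCm38.p6 and were matched by symbol. Intervals of read sums are exact Poisson intervals. Alternatives were another pseudocount, no filter or a stricter one, quantile and median-of-ratios scaling, fits of the compared subsets alone, no trend, the block, leaving out each library, and, chosen after seeing the data, voom on recovered reads. Tables were handled in Python 3.11.15 (pandas 2.3.3), and matplotlib 3.10.9 drew the figures.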

Additional observations from a re-analysis of the deposited data

How the results depend on the processing

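Over 19 alternatives, Sirpa and Sirpb1a kept their direction and their side of the threshold in all 3 comparisons. Leaving out each library in turn, the log2 fold changes were 2.74 to 3.64 and 3.56 to 4.71 for mcDC against cDC1. For Cd47 they were 0.37 to 0.47 there. The call of Cd47 between mcDC and cDC1 ended with quantile normalization (0.34), median-of-ratios scaling (0.28), the subsets fitted alone (0.42) and voom (0.28), and its difference between cDC1 and cDC2 (-0.26) passed with the replicate block and mcDC replicate 3 left out. Over all genes tested, the median log2 difference of mcDC and cDC1 went from 0.094 to -0.015 (quantile) and -0.026 (median-of-ratios). The causes of the changes in the calls were not tested.

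Of 1845 genes called between mcDC and cDC1, 1141 were higher and 704 lower in mcDC, against 859 and 940 with quantile normalization, 837 and 963 after median-of-ratios scaling, and voom gave 835 and 955. The count was 1097 with the subsets fitted alone, 2474 with the replicate block, 3005 with the block and mcDC replicate 3 left out, and 951 to 2601 leaving out each library in turn (951 without cDC1 replicate 2, 1133 without cDC1 replicate 3). Between mcDC and cDC2, 438 were called (247 higher, 191 lower), 199 and 266 after median-of-ratios scaling, 183 and 213 after quantile normalization, 192 and 247 by voom, 243 with the subsets alone, 773 with the replicate block, 722 with the block and mcDC replicate 3 left out, and 158 to 896 leaving out each library (279, 158 and 188 without cDC2 replicates 1, 2 and 3, and 896 without mcDC replicate 1). Between cDC1 and cDC2, 2344 were called, 3724 with the subsets alone, 4275 with the block and mcDC replicate 3 left out, and 1547 to 3467 leaving out each library, the lowest without cDC1 replicate 2. The replicate block changed no call of Sirpa, Sirpb1a or Cd47.

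Of 100 other named results 59 kept direction and side of the threshold throughout. Those that turned direction in an alternative were none of them called. For mcDC against cDC1, Itgav turned to -0.0623 with quantile normalization, -0.0900 with median-of-ratios scaling and -0.0870 with voom, with -0.14 to 0.16 leaving out each library (below 0 without cDC1 replicate 3 or mcDC replicate 1). Plcg2 turned to -0.0385 with both median-of-ratios scaling and voom, and Vav1 to -0.0607 with quantile normalization and -0.10 with both others, with -0.0611 to 0.14 leaving out each library. B2m turned to 0.23 with quantile normalization and to 0.0325 and 0.0537 without cDC1 replicate 3 and mcDC replicate 1, with -0.0638 as the lowest. For mcDC against cDC2, Skap2 turned to -0.0689 with median-of-ratios scaling and -0.0671 with voom (-0.0095 to 0.10 leaving out each library), Klrd1 to -0.0788, -0.0800 and -0.0643 with these and the replicate block without mcDC replicate 3 (-0.0370 to 0.0769), and Siglecg without mcDC replicates 2 or 3 (-0.28 to 0.0406). For cDC1 against cDC2, Ptpn11 turned without cDC1 replicate 2 (-0.0069 to 0.10) and Vav1 without cDC1 replicate 3 or cDC2 replicate 1 (-0.0918 to 0.0986). The planned edgeR test was not run, and the recovered reads were tested with voom in its place. At the depth of cDC1, Sirpb1b and Sirpb1c rest on 8 and 17 reads.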
